A study of Homo sapiens with 3 samples.

Results

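The genes described here are 51 enzymes and regulators of cholesterol synthesis, fatty acid synthesis and fatty acid oxidation, listed by name from these pathways and measured in the human hepatocellular carcinoma line MHCC97Low and its drug-resistant sublines. The samples were the cisplatin-resistant subline MHCC97L/CisR, the doxorubicin-resistant subline MHCC97L/DoxR and the parental MHCC97Low line, with 1 array for each. They are called CisR, DoxR and parental here. All 3 came from the same metastatic hepatoma line and were grown in DMEM with 10% FBS, and the labels state no treatment for any of them. Whether a subline is 1 clone or a pool, and the drug dose it was selected in, are not given in the labels. The study set each subline against the parental line to find genes that differ. Of the 51 genes, 46 were represented by probe sets annotated to that gene alone, out of 19775 genes on the array. CYP51A1, ELOVL1 and FADS1 lay only on probe sets annotated to several genes, and FDFT1 and ACSL3 were not analysed here.

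Cells make cholesterol from acetyl-CoA through the mevalonate pathway, and most genes of that pathway are switched on by the transcription factor SREBF2 when membrane cholesterol is low. SREBF1, its paralog, mainly drives the genes that make and desaturate fatty acids. SCAP carries both factors to the Golgi for cleavage, and INSIG1 holds SCAP back in the endoplasmic reticulum when sterols are plentiful. In liver cells fatty acids are also burned in mitochondria after activation to acyl-CoA and entry through the carnitine palmitoyltransferases, a programme that the nuclear receptor PPARA promotes during fasting.

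Signals are MAS5 signal values, a linear intensity per probe set. Values at or under a floor of 76.9 units, which is the median signal pooled over the 3 arrays, were treated as not ordered, and a comparison was made for genes with a value over it on either array. Where a gene had several probe sets, the brightest on average stood for it, and calls were made at 2-fold in either direction. Differences are given on the log2 scale as subline minus parental, and "at least" marks a fold with 1 side at the floor. With 1 array per line there was no spread between cultures against which to set a difference, so nothing was tested and precision is limited by having 3 arrays. In bulk RNA, fewer cells of a kind and less RNA per cell cannot be told apart. The arrays were alike in RNA quality, with ACTB 3' to 5' signal ratios of 1.51, 1.53 and 1.49 in CisR, DoxR and parental. Poly-A spike-ins differed from the parental array by a median log2 of 0.08 in CisR and -0.33 in DoxR. Of 13 hepatocyte and hepatoma markers, 9, 9 and 11 were above the floor in CisR, DoxR and parental, with summed signals of 61984, 68946 and 68406. AFP, TF, TTR, APOH, SERPINA1, AHSG, KRT8 and KRT18 were above it on all 3 arrays, while APOA1 and APOA2 were under it on all 3, ALB in CisR, FGB in DoxR and FGG in both sublines. Fibroblast markers were above the floor for 3, 2 and 2 of 6 in CisR, DoxR and parental, with summed signals of 3305, 1528 and 742, and their part in the differences was not tested. Of 4 endothelial markers 2 were above it on each array, of 4 leukocyte markers 1 (CD3E) in each subline and none in parental, and of 4 adipocyte markers CIDEC alone on each array.

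Most of the cholesterol and fatty acid genes were within 2-fold of the parental line in both sublines. In CisR 1 of 43 compared genes was at least 2-fold higher (ACSS3), against 2.82% of all 12699 compared genes, and 1 was at least 2-fold lower (EBP), against 2.58%. In DoxR none of 43 reached 2-fold, where 2.99% of all 12599 compared genes were higher and 2.75% lower. At 1.5-fold, 9 of 43 were higher in CisR (20.9%), against 9.29% of all compared genes, and 1 was lower, against 8.26%. In DoxR 2 were higher, against 9.10%, and 3 were lower, against 8.62%. Of the 43 genes, 26 were among the brightest 1 in 3 of all compared genes, where 4.23% were 1.5-fold higher in CisR and 5.90% in DoxR. The median log2 difference over the 43 genes was 0.22 in CisR and 0.02 in DoxR, beside 0.02 and 0.00 for all genes. Both comparisons use the same parental array, so they are not independent of each other.

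**Figure D1:**
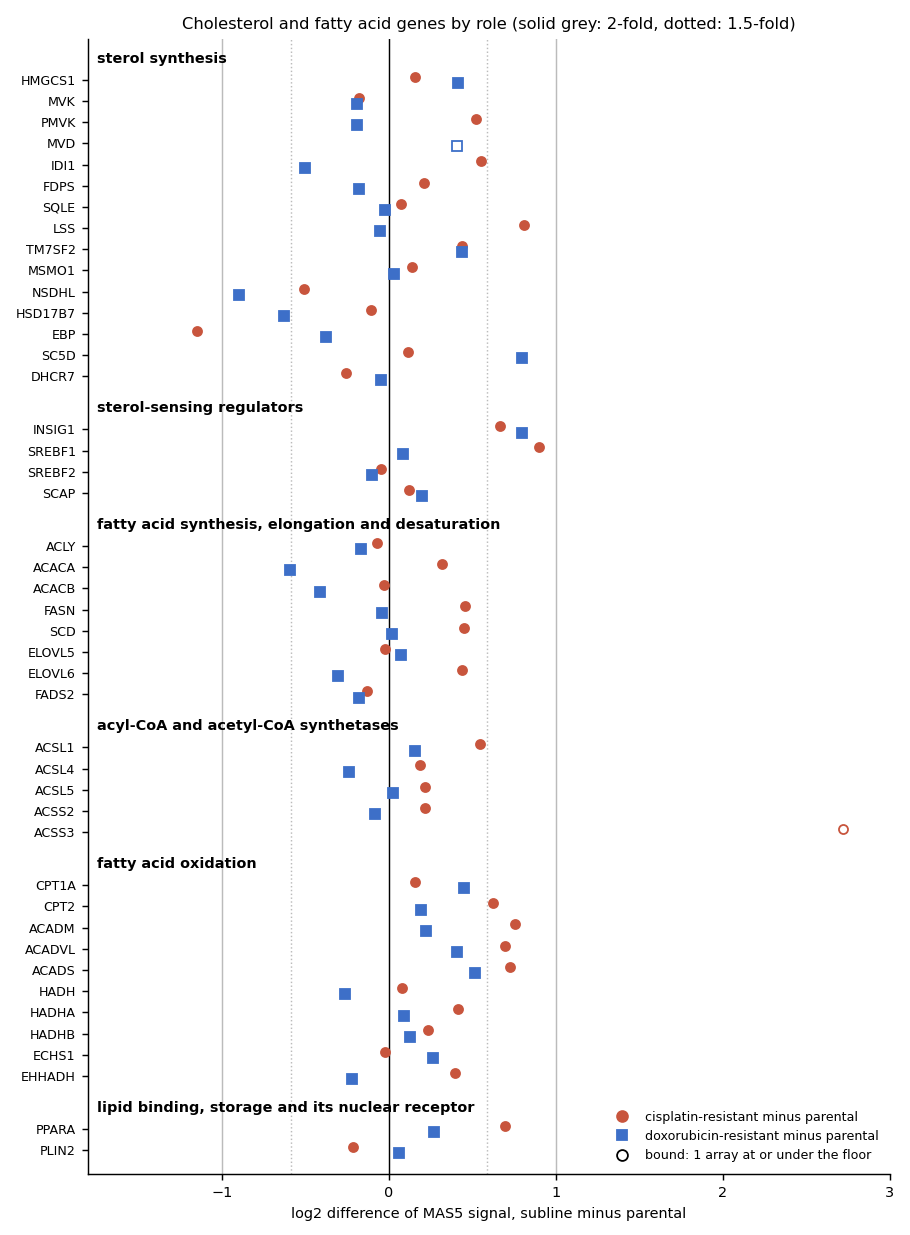
Log2 difference of MAS5 signal from the parental array (horizontal axis) for each compared cholesterol and fatty acid gene, grouped by role. Red circles are CisR and blue squares DoxR, 1 array each, with open symbols where 1 side was at the floor. The oxidation genes sit right of 0 in CisR except ECHS1 at -0.03, while the sterol synthesis genes spread to both sides.

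Promoters were compared first for what the groups share in sequence. RefSeq promoters (assembly GRCh38.p14, 250 bases before to 50 after the annotated start) were found for 46 of the 51 genes. The NF-Y box CCAAT, the site of a factor that works beside SREBF proteins on many sterol genes, was searched on both strands and lay in 12 of 15 promoters of sterol synthesis genes (80.0%). It lay in 1 of 10 promoters of oxidation genes (10.0%), 4 of 9 of fatty acid synthesis genes and 35.7% of all 27305 promoters. The sterol response element TCACNCCAC was present in 1 of 46 promoters, that of SREBF2, against 1.15% of all promoters. The E-box CACGTG was present in 6 of 46 (13.0%), against 7.43% of all promoters and 10.1% of promoters of genes above the floor. The exact DR1 repeat that PPAR proteins bind was present in none of 46, against 0.022% of all promoters. A match describes letters in this window and is not a shown binding site. The promoters printed here belong to genes that the results turn on, with NF-Y boxes, E-boxes and the sterol element in capitals on whichever strand they matched. INSIG1 and LSS were higher in CisR, NSDHL and EBP were lower in 1 or both sublines, and SREBF2 alone held the sterol element. They lie at chr7:155297628-155297927 on the plus strand for INSIG1, chr21:46228725-46229024 on the minus strand for LSS and chrX:152830813-152831112 on the plus strand for NSDHL. EBP's lies at chrX:48521558-48521857 and SREBF2's at chr22:41832855-41833154, both on the plus strand, and all are written 5′ to 3′.
INSIG1: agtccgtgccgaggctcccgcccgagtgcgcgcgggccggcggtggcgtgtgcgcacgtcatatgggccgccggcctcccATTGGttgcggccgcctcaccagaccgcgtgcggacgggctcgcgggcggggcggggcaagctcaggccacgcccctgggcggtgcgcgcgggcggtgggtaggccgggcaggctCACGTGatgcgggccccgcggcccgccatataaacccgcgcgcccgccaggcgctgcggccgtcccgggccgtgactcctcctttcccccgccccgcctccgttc
LSS: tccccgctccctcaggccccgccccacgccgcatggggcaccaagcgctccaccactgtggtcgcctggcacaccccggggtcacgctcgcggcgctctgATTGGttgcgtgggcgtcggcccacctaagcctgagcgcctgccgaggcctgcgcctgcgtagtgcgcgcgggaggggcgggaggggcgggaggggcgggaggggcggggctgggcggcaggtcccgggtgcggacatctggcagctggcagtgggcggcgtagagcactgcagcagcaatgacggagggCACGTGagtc
NSDHL: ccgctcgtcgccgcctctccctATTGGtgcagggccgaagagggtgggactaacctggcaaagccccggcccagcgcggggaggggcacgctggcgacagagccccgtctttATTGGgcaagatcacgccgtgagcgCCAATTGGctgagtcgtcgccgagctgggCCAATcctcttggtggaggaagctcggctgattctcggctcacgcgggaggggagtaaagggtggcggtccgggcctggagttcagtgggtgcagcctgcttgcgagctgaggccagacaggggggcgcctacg
EBP: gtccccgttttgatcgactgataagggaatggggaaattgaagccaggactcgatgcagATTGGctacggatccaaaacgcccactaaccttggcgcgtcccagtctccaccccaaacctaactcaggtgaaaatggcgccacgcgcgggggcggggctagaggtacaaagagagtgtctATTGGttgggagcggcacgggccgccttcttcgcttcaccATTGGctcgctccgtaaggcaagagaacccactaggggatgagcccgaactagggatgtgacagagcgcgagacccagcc
SREBF2: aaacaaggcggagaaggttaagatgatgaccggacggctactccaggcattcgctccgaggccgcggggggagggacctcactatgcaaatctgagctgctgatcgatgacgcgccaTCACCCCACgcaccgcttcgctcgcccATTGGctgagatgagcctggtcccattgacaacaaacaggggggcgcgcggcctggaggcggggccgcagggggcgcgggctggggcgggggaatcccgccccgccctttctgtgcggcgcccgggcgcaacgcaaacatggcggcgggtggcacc
The NSDHL promoter held 5 NF-Y boxes, of which a pair on opposite strands overlapped, and the EBP promoter held 3. INSIG1 and LSS each held 1 NF-Y box and 1 E-box, and SREBF2 held 1 NF-Y box downstream of its sterol element. Genes with these boxes differed from the parental array in both directions.

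Sterol synthesis genes had no common direction. Of 14 compared genes in CisR, 1 was 2-fold lower and 13 were within 2-fold, with a median log2 difference of 0.13. In DoxR all 15 compared genes were within 2-fold, with a median of -0.05. EBP, the sterol isomerase that shifts the double bond of the ring late in the pathway, had a signal of 2466 in CisR and 4224 in DoxR, against 5476 in parental. It was lowest in CisR, 2.22-fold below parental, and 1.30-fold below in DoxR. The 3 measured EBP probe sets gave log2 differences of -1.40 to -1.08 in CisR and -0.45 to -0.37 in DoxR. Its neighbours on chromosome X (the 10 compared genes on either side) had median differences of -1.36 in CisR and -0.42 in DoxR, both below those of EBP. NSDHL, the dehydrogenase that helps remove the methyl groups of lanosterol, is another chromosome X gene. Its signal was 1326 in CisR and 1016 in DoxR, against 1890 in parental. Both sublines were below parental, by 1.42-fold and 1.86-fold, and the other NSDHL probe set gave -0.86 and -0.97.

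LSS, the cyclase that folds squalene epoxide into lanosterol, had a signal of 2108 in CisR and 1162 in DoxR, against 1205 in parental. CisR stood apart at 1.75-fold higher, while DoxR was close to parental. SC5D, the desaturase of a late step, showed the other pattern, with 1313 in CisR and 2104 in DoxR, against 1213 in parental. It was 1.73-fold higher in DoxR and 1.08-fold in CisR. HSD17B7, a ketone reductase of the demethylation steps, had a signal of 927 in CisR and 647 in DoxR, against 999 in parental, and was 1.54-fold lower in DoxR. Other probe sets of LSS and SC5D were under the floor on all 3 arrays, so each rests on 1 probe set, as does HSD17B7.

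Of the enzymes up to squalene epoxide, the 6 compared in both sublines (HMGCS1, MVK, PMVK, IDI1, FDPS and SQLE) were within 1.5-fold of parental by the probe set that stood for each gene. HMGCS1, which condenses acetyl units into HMG-CoA, had a signal of 503 in CisR and 601 in DoxR, against 450 in parental. Its other probe set differed by -0.01 and -0.09, so its 1.33-fold difference in DoxR was not shown by both. SQLE, the squalene epoxidase, had a signal of 3646 in CisR and 3413 in DoxR, against 3468 in parental. Its 3 other probe sets were lower in both sublines, at -0.51 to -0.07 in CisR and -0.95 to -0.28 in DoxR. IDI1, which isomerises the activated isoprene unit, had 4767 in CisR and 2294 in DoxR, against 3254 in parental. Parental lay between the sublines for IDI1, at log2 differences of 0.55 and -0.50, but 1 further IDI1 probe set was higher in both sublines, at 1.04 and 0.64. The other compared sterol synthesis genes (MVK, PMVK, FDPS, TM7SF2, MSMO1 and DHCR7) lay between -0.26 and 0.52 in CisR and between -0.19 and 0.44 in DoxR. MVD, the mevalonate diphosphate decarboxylase, was above the floor in DoxR alone, with signals of 25.4 in CisR and 102 in DoxR, against 74.99 in parental, at least 1.33-fold higher in DoxR and not compared in CisR. The dim probe sets of MVK, the mevalonate kinase, went against its brightest one, at up to 0.90 and 0.75.

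Of the 4 sterol-sensing regulators, INSIG1 was higher in both sublines and SREBF1 in CisR. INSIG1 had a signal of 1840 in CisR and 2008 in DoxR, against 1158 in parental. It was 1.59-fold and 1.73-fold higher, and all 3 of its probe sets showed this, at 0.67 to 0.84 and 0.77 to 0.91. SREBF1 had a signal of 2528 in CisR and 1432 in DoxR, against 1354 in parental. CisR stood apart from the other arrays, 1.87-fold above parental, with 0.51 from the other probe set. SREBF2 had a signal of 387 in CisR and 373 in DoxR, against 399 in parental, and its probe sets disagreed in sign. SCAP had a signal of 887 in CisR and 935 in DoxR, against 815 in parental, which is 1.09-fold and 1.15-fold.

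Fatty acid synthesis genes had a median log2 difference of 0.15 in CisR and -0.17 in DoxR over 8 genes, and none reached 2-fold. ACACA, the carboxylase that makes malonyl-CoA for fatty acid synthesis, had a signal of 3967 in CisR and 2118 in DoxR, against 3187 in parental. The parental value lay between those of the sublines, with log2 differences of 0.32 and -0.59, and the other ACACA probe set gave 0.35 and -0.22. FASN, the fatty acid synthase, had a signal of 3506 in CisR and 2480 in DoxR, against 2552 in parental. SCD, the desaturase that makes oleate, had a signal of 18790 in CisR and 13958 in DoxR, against 13751 in parental. FASN and SCD were each 1.37-fold higher in CisR and within 1.03-fold of parental in DoxR. For SCD, 3 of 4 probe sets were higher in CisR, at -0.04 to 0.45, while in DoxR its 3 other probe sets were lower, at -0.43 to -0.06. ELOVL6, which extends palmitate, followed at 1.36-fold higher in CisR in all 3 of its probe sets, at 0.40 to 0.61. ACLY, which splits citrate into cytosolic acetyl-CoA, had a signal of 12058 in CisR and 11284 in DoxR, against 12693 in parental. The remaining genes of this group (ACACB, ELOVL5 and FADS2) lay between -0.13 and -0.02 and between -0.41 and 0.07. A second, dimmer FADS2 probe set was 2-fold lower in both sublines, at -1.08 in each.

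Acyl-CoA synthetases activate fatty acids for storage or burning, and ACSS3, a mitochondrial synthetase for short-chain acids, was the member furthest from parental. Its signal was 507 in CisR and 51.3 in DoxR, against 54.7 in parental. The gene was above the floor in CisR alone, at least 6.59-fold higher, and its other probe set gave at least 4.23-fold, with 325 in CisR, 62.9 in DoxR and 19.3 in parental. The genes around ACSS3 on chromosome 12 had a median difference of 0.09. The long-chain synthetases ACSL1, ACSL4 and ACSL5 and the cytosolic acetyl-CoA synthetase ACSS2 lay between 0.18 and 0.55 in CisR and between -0.24 and 0.15 in DoxR. ACSL1 was 1.46-fold higher in CisR, beside a median of 0.43 for its neighbours on chromosome 4. Its other probe set gave 0.80 in CisR and 0.48 in DoxR.

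**Figure D2:**
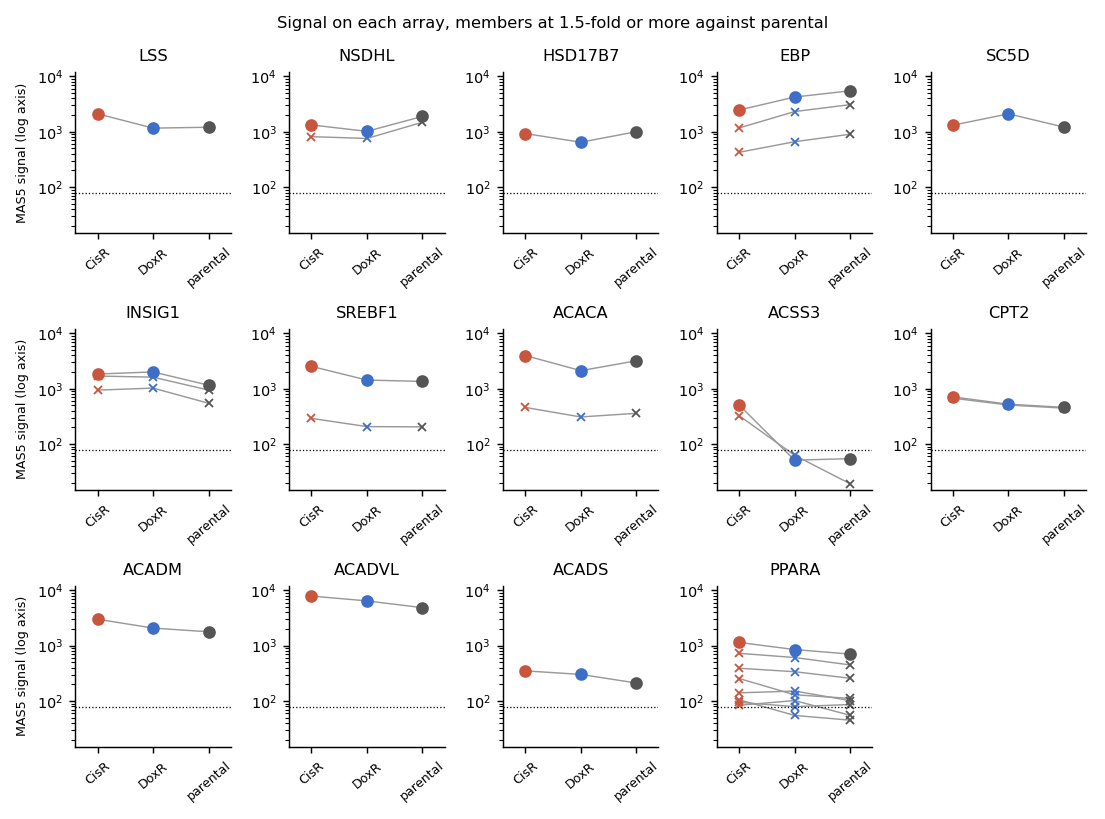
MAS5 signal (vertical log axis) on the CisR, DoxR and parental arrays for the 14 genes that differed from parental by 1.5-fold or more in either subline. Filled circles are the probe set that represents the gene, crosses its other probe sets above the floor on at least 1 array, grey lines join 1 probe set and the dotted line is the floor of 76.9. ACSS3 crosses the floor, at 507 in CisR against 54.7 in parental, while EBP is lowest in CisR, at 2466 against 5476.

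Fatty acid oxidation genes held 4 of the 9 genes at 1.5-fold higher in CisR, out of 10 compared, and none was lower, where 9.29% of all compared genes were higher (4.23% of the brightest 1 in 3) and 8.26% lower. Their log2 differences were above 0 for 9 of 10 genes, against 52.1% of all compared genes, with a median of 0.40. In DoxR 8 of 10 were above 0, against 50.4%, with a median of 0.21 and none at 1.5-fold. With the median of neighbouring genes subtracted, the medians were 0.41 and 0.17. The lean in CisR was not confined to oxidation genes, since 31 of all 43 members were above 0 (72.1%). Among them were 5 of 5 synthetases (median 0.22) and 3 of 4 sterol-sensing regulators (median 0.40). For sterol synthesis it was 9 of 14, and for fatty acid synthesis 4 of 8. The 4 oxidation genes at 1.5-fold in CisR were the acyl-CoA dehydrogenases ACADM, ACADVL and ACADS and the inner-membrane carnitine palmitoyltransferase CPT2. These dehydrogenases start the cycle on medium, very long and short chains.
ACADM had a signal of 3000 in CisR and 2076 in DoxR, against 1781 in parental, 1.68-fold and 1.17-fold higher. ACADVL had 7846 in CisR and 6427 in DoxR, against 4849 in parental, 1.62-fold and 1.33-fold higher. ACADS had 351.1 in CisR and 303 in DoxR, against 212 in parental, 1.65-fold and 1.43-fold higher. These 3 dehydrogenases had 1 probe set each, and for each the order of the arrays from high to low was CisR, DoxR, then parental. CPT2 had 711 in CisR and 526 in DoxR, against 461 in parental, with 0.59 to 0.63 from its 2 probe sets in CisR.
CPT1A, the outer-membrane enzyme that sets the rate of entry into mitochondria, had a signal of 3774 in CisR and 4621 in DoxR, against 3382 in parental. It was higher in DoxR, by 1.37-fold and in all 3 measured probe sets (0.45 to 0.88), and 1.12-fold in CisR. None of the later enzymes reached 1.5-fold. HADHA and HADHB, the subunits of the trifunctional protein, were at 0.41 and 0.23 in CisR and 0.09 and 0.13 in DoxR. In DoxR, 2 of 3 HADHA probe sets were higher, at -0.37 to 0.17. The hydratase ECHS1 and the dehydrogenase HADH were at -0.03 and 0.08 in CisR, and at 0.26 and -0.27 in DoxR. The peroxisomal bifunctional enzyme EHHADH was at 0.39 and -0.22. ACADL, the long-chain dehydrogenase, was under the floor on all 3 arrays.

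PPARA, the fatty acid-sensing nuclear receptor whose targets include many of these oxidation genes, was higher in CisR. Its signal was 1144 in CisR and 851 in DoxR, against 706 in parental, 1.62-fold and 1.21-fold. All 8 measured PPARA probe sets were higher in CisR, at 0.13 to 1.19, and 6 of 7 in DoxR, at -0.13 to 0.57. PLIN2, which coats lipid droplets, had a signal of 3884 in CisR and 4696 in DoxR, against 4507 in parental. A dimmer PLIN2 probe set was lower in both sublines, at -0.81 and -0.27. FABP1, the liver fatty acid-binding protein and a hepatocyte product, was under the floor on every array, at 4.94, 5.56 and 4.88 in CisR, DoxR and parental.

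Several of the differences were shared with genes that lie beside the member on its chromosome. Over the 43 members, Pearson's r between a member's log2 difference and the median of its neighbours was 0.48 in CisR and 0.61 in DoxR, where it was 0.31 and 0.32 over all genes. These are correlations across genes of the same arrays, which are not independent replicates, and are given as a description. With the neighbours' median subtracted, 5 of the 9 genes at 1.5-fold higher in CisR stayed past 1.5-fold (INSIG1, ACSS3, ACADVL, ACADS and PPARA), while EBP did not. None of the 5 genes at 1.5-fold in DoxR stayed past it. The neighbours' medians there were -0.54 for NSDHL, -0.41 for HSD17B7 on chromosome 1, -0.42 for ACACA on chromosome 17, 0.24 for SC5D on chromosome 11 and 0.54 for INSIG1 on chromosome 7. In CisR SREBF1, on chromosome 17, had neighbours at 0.60, and LSS, on chromosome 21, had neighbours at 0.52. The part of neighbouring genes in these differences was not tested. INSIG1 differed between the comparisons in this respect, with neighbours at -0.04 in CisR and 0.54 in DoxR.

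**Figure D3:**
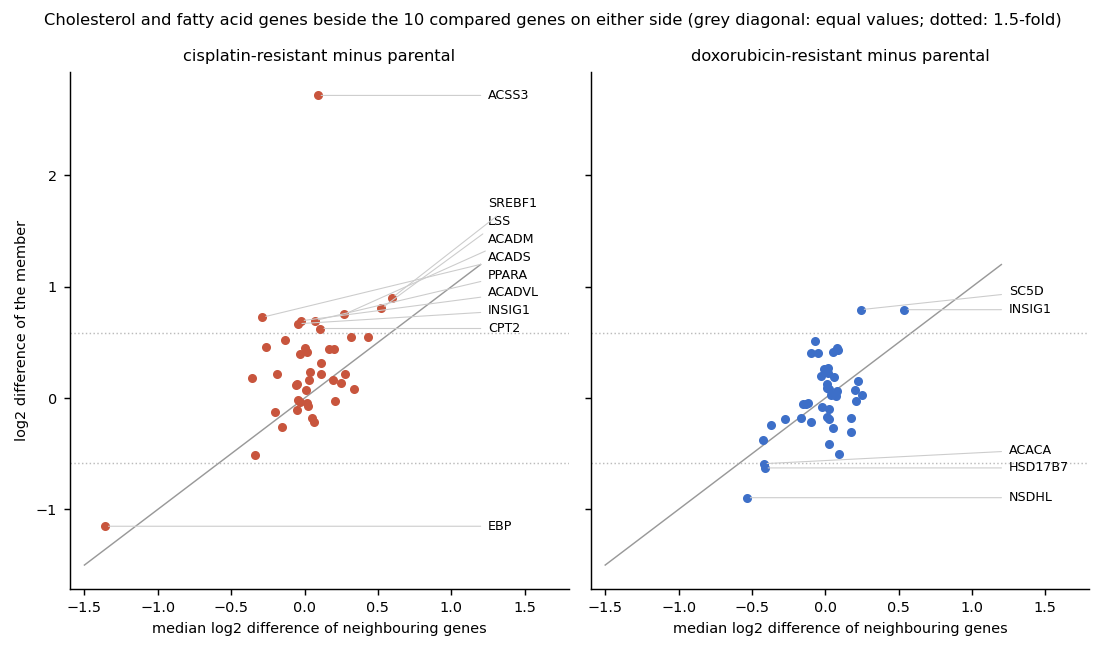
Log2 difference from parental of each compared cholesterol and fatty acid gene (vertical axis) against the median difference of the 10 compared genes on either side of it (horizontal axis), for CisR (left, red) and DoxR (right, blue). Genes on the grey diagonal differ as much as their neighbours: EBP lies near it at -1.15, whereas ACSS3 at 2.72 lies far above it.

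Set directly against each other, DoxR was below CisR for 33 of 44 compared genes, against 51.3% of all compared genes, with a median log2 difference of -0.29 beside -0.01. At 2-fold, 2 of 44 were lower (IDI1 and ACSS3), 4.55% of them, against 3.32% of all genes, and none was higher, against 3.05%. IDI1 was 2.08-fold lower in DoxR, with all 4 probe sets lower but a range of -1.05 to -0.24. At 1.5-fold, 8 were lower, against 9.91% of all genes, and 2 were higher (EBP and SC5D), against 9.16%. Fatty acid synthesis genes had a median of -0.41, with 7 of 8 below 0, led by ACACA at -0.91 and ELOVL6 at -0.74. For oxidation genes the median was -0.30 and 8 of 10 were below 0, and CPT1A and ECHS1 above it, both at 0.29 relative to CisR. This comparison uses the same sublines' arrays as those against parental and adds no further measurement.

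A further 100 genes of the same pathways were listed by textbook role, with earlier results of these data known, so they are no independent check. Of them 88 were on probe sets of 1 gene and 77 were compared with parental. In CisR 2 were at least 2-fold higher and 4 lower, 7.79% together, against 5.40% of all compared genes. In DoxR 5 were higher and 3 lower, 10.4% together, against 5.75%. Among the 23 further oxidation and ketogenesis genes, 19 were above 0 in CisR, against 52.1% of all compared genes, with a median of 0.27. In DoxR 16 were above 0, against 50.4%, with a median of 0.10. At 1.5-fold in CisR, 4 of these 23 were higher (17.4%, against 9.29%) and 2 lower (8.70%, against 8.26%). In sign and median, the other further lists did not share this lean in CisR to the same degree. At 1.5-fold the share of further sterol genes was similar, with 3 of 16 higher (18.75%) and 2 lower (12.5%). Above 0 were 8 of 16 sterol genes (median 0.02) and 13 of 21 fatty acid synthesis and esterification genes (median 0.16). For lipid binding and droplets it was 7 of 17 (median -0.10). In DoxR the counts were 6 of 16, 14 of 21 and 6 of 17. The sterol exporter ABCG1, a target of the oxysterol receptors, was the gene past 2-fold and higher in both sublines. Its signal was 1101 in CisR and 1176 in DoxR, against 468 in parental, 2.35-fold and 2.51-fold higher, with all 4 probe sets at 0.96 to 1.24 and 1.04 to 1.40. NPC1, which lets cholesterol out of lysosomes, was 2.02-fold lower in CisR, with 3204 in CisR and 3959 in DoxR, against 6474 in parental. Its 3 measured probe sets were all lower, at -2.17 to -0.32 in CisR and -0.80 to -0.71 in DoxR. The 2-fold call in CisR thus depends on the probe set. With DoxR set against CisR, the 3 probe sets ranged from -0.48 to 1.46, so the order of the sublines depends on it too. The muscle-type fatty acid-binding protein FABP3 was above the floor in parental alone, at 194, and at least 2.52-fold lower in both sublines.

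In CisR LPIN2, a phosphatidate phosphatase of triglyceride synthesis, was 2.58-fold lower and HSD17B10, a mitochondrial hydroxyacyl-CoA dehydrogenase, 2.15-fold lower. The neighbours of these genes on chromosomes 18 and X had medians of -0.96 and -0.67. CPT1C, a carnitine palmitoyltransferase of the endoplasmic reticulum, was 2.76-fold higher, with 225 in CisR, against 81.5 in parental, just over the floor.
In DoxR CROT, the peroxisomal carnitine octanoyltransferase, was 3.53-fold higher, with 272 in CisR and 1556 in DoxR, against 441 in parental, and 0.08 to 2.72 over its 3 probe sets. MLXIPL, the carbohydrate-responsive activator of lipogenic genes, was 2.77-fold higher, with 296 in DoxR, against 107 in parental. Both lie on chromosome 7, where their neighbours had medians of 1.41 and 1.00. The mitochondrial acetyl-CoA synthetase ACSS1 was 2.24-fold and the elongase ELOVL7 2.08-fold higher, with neighbours at -0.11 and 0.07. The droplet protein CIDEC was 2.46-fold lower, with 1228 in DoxR, against 3020 in parental, and neighbours at -0.64. MID1IP1, an activator of acetyl-CoA carboxylase, was at least 27.9-fold lower in DoxR. Its signal was 1908 in CisR and 17.3 in DoxR, against 2144 in parental, and its chromosome X neighbours were at -0.36 in DoxR. MID1IP1 rests on 1 probe set, as do CIDEC, MLXIPL, ELOVL7, HSD17B10 and CPT1C.

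**Figure D4:**
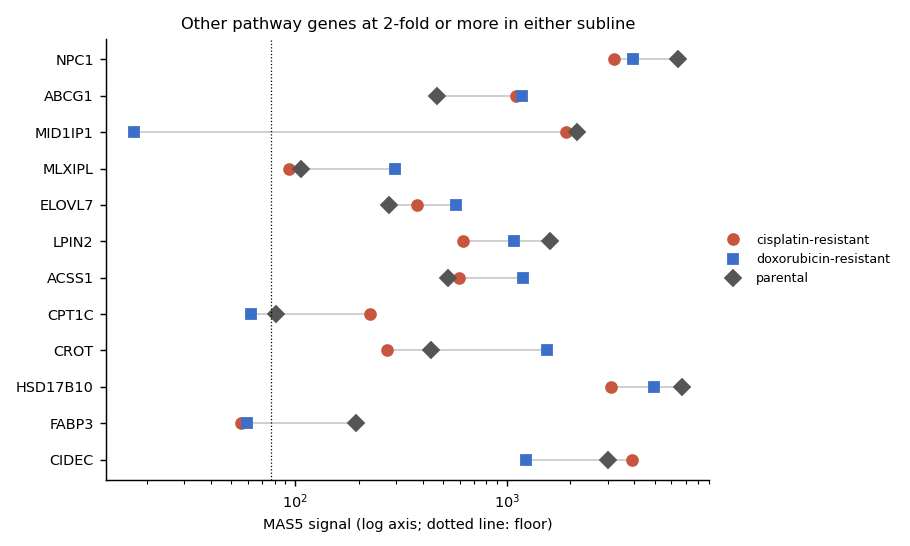
MAS5 signal (horizontal log axis) of the 12 further pathway genes that differed from parental by 2-fold or more in either subline, on the CisR (circle), DoxR (square) and parental (diamond) arrays, 1 each, with the floor dotted. For ABCG1 both sublines, at 1101 and 1176, lie right of the parental value of 468. For NPC1 both lie left of it.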

How the data were processed

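Total RNA from 3 cell lines was hybridised to Affymetrix U133 Plus 2.0 expression arrays, 1 per line, per the labels' protocols. The values were deposited as a linear intensity (MAS5 signal) per probe set, per the submitters' processing notes; no MAS5 version is named there. The 2 percent trimmed mean of each array was 500.1, equal across arrays. Of 54675 probe sets, 41091 carried a single gene symbol; the 1801 with several symbols were left unnamed, 62 were controls, and 11721 are not named here. Symbols were updated through Entrez identifiers in RefSeq (GRCh38.p14, 99.9% matched), which also gave gene order.

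Log2 differences were computed in Python 3.11.15 with pandas 2.3.3 after raising values to the floor of 76.9 (50th percentile). With 1 array per group no p-value was possible, and a gene was called at 2-fold, with 1.5-fold as a lower mark. The steps were tested on simulated data with differences past 2-fold set into bright genes, so smaller differences and dim genes were not covered. Alternatives changed the probe set choice, floor, scaling, neighbours and threshold. The members and lists were chosen with earlier results of these data known. Members at 1.5-fold against parental, and 14 central genes at any value, were named with their signals; further pathway genes were named at 2-fold.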

Additional observations from a re-analysis of the deposited data

Results flagged for a closer look

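CROT, the peroxisomal carnitine octanoyltransferase, is one of the further pathway genes, and its sublines lay on opposite sides of the parental array by 1.5-fold or more each. Its log2 difference was -0.70 in CisR and 1.82 in DoxR. Its other probe set measured in CisR differed by 0.31, on the other side of parental. The difference between the sublines was not tested, since each line had 1 array. None of the 42 genes of the main list that were compared in both sublines showed such opposite differences at 1.5-fold.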

How the results depend on the processing

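With 1 array per line, no replicate could be left out and no paired analysis was possible because each group held a single array. In CisR 1 gene was higher; the count was 2 with unspecific probe sets avoided (IDI1 added), with centring on housekeeping genes (SREBF1 added) and with neighbouring genes subtracted (ACADS added), 0 with the floor at the 75th percentile, and 9 at 1.5-fold. The 1 lower gene became 2 with unspecific probe sets avoided (FADS2 added), and 2 with the floor at the 25th percentile or with no floor and a pseudocount of 16 (MVD added). It became 0 with housekeeping centring, which raised the median of all genes to 0.18, and 0 with neighbouring genes subtracted, where EBP changed sign to 0.21. In DoxR the counts of 0 became 2 higher and 3 lower at 1.5-fold, and 1 lower (FADS2) with unspecific probe sets avoided. Against CisR, 0 higher became 1 with the floor at the 25th percentile or no floor (MVD), and 2 at 1.5-fold. The 2 lower became 1 with the median over probe sets, unspecific probe sets avoided, the floor at the 75th percentile or neighbours subtracted, and 8 at 1.5-fold. Role medians moved by less than the spread of all genes in the 11 alternatives. That of oxidation genes ranged from 0.23 to 0.57 in CisR and 0.17 to 0.29 in DoxR. Both upper ends came from housekeeping centring, where the median of all genes was itself 0.18 in CisR and 0.09 in DoxR. The DoxR medians of sterol synthesis (-0.18 to 0.05) and of the synthetases (-0.08 to 0.06) changed sign in 2 alternatives each, as did that of the regulators between the sublines (-0.17 to 0.09). The causes of these changes were not tested beyond what each setting does by construction.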
